A study of Homo sapiens with 2 samples.

Results

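The genes described here are 34 cytokine receptor genes, chosen by name and grouped by the chain that their receptors share. They encode the receptor chains for interleukins, colony-stimulating factors, interferons, tumour necrosis factor, erythropoietin and leptin. Each symbol was found once among the 50868 genes of the deposited table, which hold 50464 symbols. The RNA came from KASUMI-1, an established human acute myeloid leukaemia cell line with the RUNX1-RUNX1T1 fusion, grown in medium with fetal bovine serum and infected with a lentivirus labelled pccl or with one labelled USP6. The pccl library served as the reference, and the comparison asks how the levels of receptor messages differed in the library of cells given USP6, a deubiquitinase. With 1 library per group, none of the differences could be checked against replicates, no test was made, and all intervals cover counting error only. They make no allowance for PCR copies of a molecule. The labels name 1 cell line and do not say whether the infected cells were selected, pooled or taken as a clone.

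Most of these receptors work as pairs of chains: a private chain binds the cytokine, and a chain shared by several receptors carries the signal to JAK kinases and STAT transcription factors inside the cell. CSF2RB is shared by the receptors for IL-3, IL-5 and GM-CSF, IL2RG by those for IL-2, IL-4, IL-7, IL-9, IL-15 and IL-21, IL6ST (gp130) by those of the IL-6 family, and IL10RB by those for IL-10, IL-22, IL-26 and interferon lambda. IL-1, IL-17 and tumour necrosis factor receptors use other adaptors and lead mainly to NF-kappaB. In myeloid progenitors the receptors for IL-3, GM-CSF and G-CSF are known for supporting survival, division and granulocyte and monocyte maturation.

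The pccl library held 12306442 counts and the USP6 library 12518795, of which 49.9% and 45.6% fell on the mitochondrial genome. FPKM is the count scaled by gene length and by the library's total. The USP6 gene itself had 8 and 70 counts (0.0396 and 0.340 FPKM), 8.60-fold more in the USP6 library (95% counting interval 4.13 to 20.7) but under 1 FPKM in both. Of 8 markers of the labelled cell, 7 reached 1 FPKM, and CD38 had 0 and 8 counts. Their levels differed in both directions: MPO had 27.4 FPKM with pccl and 122 with USP6 and ANPEP 0.451 and 2.39, while KIT had 99.3 and 40 and CD34 12.6 and 4.19. Markers of other cells were mostly low. Their summed levels in the pccl and USP6 libraries were 29.6 and 32.4 FPKM for 8 T and NK cell genes and 4.06 and 13.9 FPKM for 5 B cell genes, led by CD79A. Of the T and NK cell genes CD3D had 27.8 and 22.6 FPKM, CD3E 0.890 and 4.34, and CD2 0.156 and 3.10. The sums were 0.539 and 0.534 for 4 erythroid genes, 0.996 and 1.23 for 6 monocyte and macrophage genes, 0.307 and 0.831 for 5 mast cell and basophil genes, and 17.4 and 8.80 for 6 stromal and epithelial genes, nearly all of it EPCAM. No count was found for ALAS2, FCGR3A, MRC1, MS4A2, COL1A2, DCN or KRT18, and MS4A1 had 0 and 1. The part of any of these marker differences in the receptor differences was not tested. Fewer cells with a message and less message per cell cannot be told apart in such libraries.

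Of the 34 receptor genes, 17 reached 1 FPKM in at least 1 library, 11 had counts but stayed under 1 FPKM in both, and 6 had no count in either library. Differences are given as the log2 ratio, log2((USP6 + 1)/(pccl + 1)) of FPKM, where the added 1 shrinks the differences of low genes, and a ratio at or past 1 or -1 is taken as higher or lower. A fold written as higher or lower is the plain ratio of FPKM and does not mean that the limit was reached. IL10RB and IFNGR1 were higher in the USP6 library, IL6ST, IL1RAP and IL13RA1 were lower, and 12 lay between the limits. That is 11.8% higher and 17.6% lower among the 17, against 13.7% higher and 11.4% lower among all 10153 genes with at least 1 FPKM, so the share of receptor genes past the limits was near that of genes in general. The median log2 ratio was 0.35 over the 17 genes and 0.06 over all 10153. Of the 17 genes, 6 reached 1 FPKM in only 1 of the libraries (IL3RA, CSF2RA, EPOR and IL10RB in the USP6 library, IL6ST and IL18R1 in the pccl library), which by itself sets the direction of their difference.

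**Figure D1:**
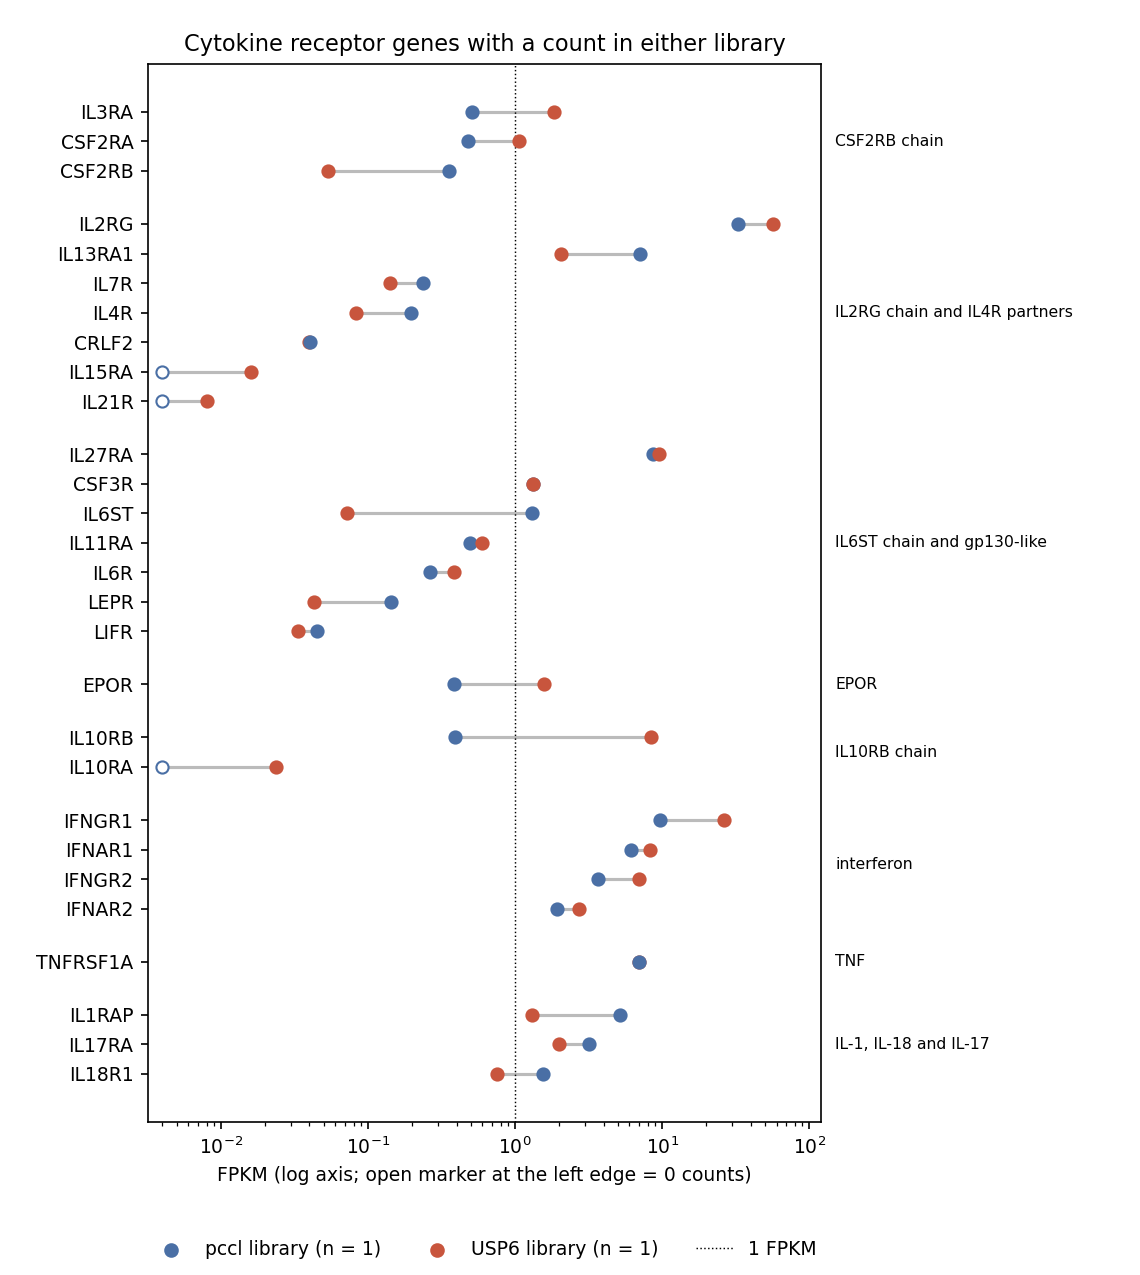
FPKM (log axis) of the 28 receptor genes with a count, grouped by shared chain, with 1 point for the pccl and 1 for the USP6 library; open markers at the left edge stand for 0 counts, and points that coincide hide each other. IL2RG is the highest in both libraries, and IL10RB and IL6ST have the widest gaps, in opposite directions.

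IL2RG, the common gamma chain, was by far the most abundant receptor message, while the private chains that pair with it stayed under 1 FPKM in both libraries. IL2RG (ENSG00000147168, chromosome X from 71107404 to 71112108) had 2551 counts (33.0 FPKM) with pccl and 4461 (56.6 FPKM) with USP6. It was 1.72-fold higher (1.64 to 1.81), with a log2 ratio of 0.76, under the limit. It made up 35.4% of the summed FPKM of all 34 genes with pccl and 40.7% with USP6, and ranked 1 in both.

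Among its partners, the IL-2 receptor chains IL2RA and IL2RB had 0 counts in both libraries, and a count of 0 allows up to 3. IL15RA, which presents IL-15, had 0 and 2 counts, and IL21R 0 and 1. IL7R had 28 and 17 counts (0.238 and 0.142 FPKM), 1.68-fold lower with an interval of 0.886 to 3.26 that includes no difference. The IL-9 binding chain IL9R, which is outside the 34 genes, had 10 and 24 counts (0.199 and 0.470 FPKM). CRLF2, which joins IL7R in the receptor for TSLP, had 2 counts in each library.

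The other receptor for IL-4 and IL-13 is made of IL4R and IL13RA1, of which IL13RA1 was lower in the USP6 library. IL13RA1 (ENSG00000131724, chromosome X from 118727572 to 118794539) had 418 counts (7.11 FPKM) and 123 (2.06 FPKM), 3.46-fold lower (2.82 to 4.26), a log2 ratio of -1.41. IL4R, needed for any IL-4 response, had 30 and 13 counts (0.196 and 0.0834 FPKM), 2.35-fold lower (1.19 to 4.90), with a log2 ratio of -0.14, under the limit. Per length, IL13RA1 was 36.3-fold above IL4R in the pccl library and 24.7-fold above it in the USP6 library, so IL4R was the scarcer chain in both.

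The receptors for IL-3 and GM-CSF showed opposite differences in their alpha and beta chains. The alpha chain IL3RA (CD123), a surface antigen of leukaemic progenitors, had 14 counts (0.506 FPKM) with pccl and 52 (1.85 FPKM) with USP6, 3.65-fold higher (1.99 to 7.13). The GM-CSF receptor alpha chain CSF2RA had 43 counts (0.482 FPKM) and 97 (1.07 FPKM), 2.22-fold higher (1.53 to 3.25). Their common signalling chain went the other way.

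CSF2RB (ENSG00000100368, chromosome 22 from 36913628 to 36940449) had 39 counts (0.354 FPKM) with pccl and 6 (0.0535 FPKM) with USP6, 6.61-fold lower (2.78 to 19.1). At these levels, under 1 FPKM in both libraries, its log2 ratio was -0.36. Per length, CSF2RA stood 1.36-fold above CSF2RB in the pccl library and 20-fold above it in the USP6 library, and IL3RA 1.43-fold and 34.6-fold, ratios that rest on the 6 counts of CSF2RB. IL3RA, CSF2RA and CRLF2 are listed on chromosome X, in the pseudoautosomal region that X and Y share, and the sources used here do not say how reads that match both copies were counted. On the log2 scale none of the 3 chains reached a limit: IL3RA was at 0.92 and CSF2RA at 0.48.

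Of the IL-6 family, the shared signalling chain was the gene with the largest fold below the pccl library among the 24 receptor genes with a counting interval. IL6ST (ENSG00000134352, chromosome 5 from 55935095 to 55994993) had 432 counts (1.31 FPKM) with pccl and 24 (0.0715 FPKM) with USP6. It was 18.3-fold lower (12.1 to 28.9), a log2 ratio of -1.11. The gene it overlaps, AC008914.1 on the opposite strand, had no count.

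The private chains of the family did not share this difference in size. IL27RA, which pairs with IL6ST to bind IL-27, had 314 counts (8.61 FPKM) and 354 (9.55 FPKM), a ratio of 1.11 whose interval of 0.949 to 1.29 includes 1. IL6R, the IL-6 binding chain, had 32 and 47 counts (0.265 and 0.382 FPKM), a ratio of 1.44 (0.902 to 2.34). IL11RA, the IL-11 binding chain, had 45 and 56 counts (ratio 1.22, 0.812 to 1.85), and it overlaps GALT on the same strand. Per length, IL27RA stood 6.58-fold above IL6ST in the pccl library and 134-fold above it in the USP6 library, and IL6R stood at 0.202 and 5.35 times the level of IL6ST. These ratios depend on the gene lengths behind FPKM. By counts IL6ST was above IL27RA with pccl (432 against 314) and below it with USP6 (24 against 354).

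LIFR, the leukaemia inhibitory factor chain, had 8 and 6 counts (0.0451 and 0.0332 FPKM, below IL6ST in both libraries), OSMR of oncostatin M had 0 and 0, and IL12RB1, shared by IL-12 and IL-23, had 0 and 0. The leptin receptor LEPR had 26 and 8 counts (0.143 and 0.0432 FPKM), 3.31-fold lower (1.45 to 8.45), but its log2 ratio at these levels was -0.13. LEPR overlaps LEPROT on the same strand, which had 277 counts (3.70 FPKM) and 68 (0.893 FPKM), and reads could have been split between the genes. CSF3R, the receptor for G-CSF that drives neutrophil production, was level, with 273 and 277 counts (1.33 FPKM in each library) and a ratio of 0.997 (0.841 to 1.18).

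The DNA upstream of IL6ST is shown because this gene had the largest fold below the pccl library. It is the RefSeq promoter window (GRCh38.p14, chr5:55994994-55995213, minus strand), trimmed to the 220 bases before the start that the deposited table lists, and capitals mark the letters CCAAT on either strand, found 3 times.
IL6ST: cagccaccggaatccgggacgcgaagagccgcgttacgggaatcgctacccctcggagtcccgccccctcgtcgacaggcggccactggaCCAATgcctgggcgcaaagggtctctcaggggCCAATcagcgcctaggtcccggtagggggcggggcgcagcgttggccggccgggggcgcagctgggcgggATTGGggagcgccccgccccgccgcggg
The window is 74.5% G or C, although the longest transcript of the gene is only 36.6% G or C. CCAAT was present in 32% of 34943 RefSeq windows of 250 bases before a start.

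IL10RB, the chain shared by the receptors for IL-10, IL-22 and interferon lambda, had the largest fold above the pccl library of those 24 genes. IL10RB (ENSG00000243646, chromosome 21 from 33266358 to 33297234, plus strand) had 20 counts (0.388 FPKM) with pccl and 439 (8.37 FPKM) with USP6. It was 21.6-fold higher (13.8 to 35.7), a log2 ratio of 2.76, and moved from rank 17 to rank 4 among the receptor genes. Its partner IL10RA, the chain that binds IL-10, had 0 and 5 counts. With the 0 set to a floor of 3 counts its ratio was 1.64, without a counting interval. IL10RA was thus near 0 in both libraries. Of the chains for IL-22 and interferon lambda, IL22RA1 and IFNLR1, which are outside the 34 genes, had no count in either library.

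IL10RB lies in a cluster with the interferon receptor genes IFNAR2, IFNAR1 and IFNGR2, all on the plus strand of chromosome 21, and its neighbours differed far less. IFNAR2 (from 33229901 to 33265675) was 1.42-fold higher (1.18 to 1.72), IFNAR1 (from 33324477 to 33359862) 1.34-fold higher (1.19 to 1.51) and IFNGR2 (from 33402896 to 33479348) 1.89-fold higher (1.60 to 2.25). The divergent noncoding gene IL10RB-DT, on the opposite strand with 97 bases between its start and that of IL10RB, had 20 and 19 counts (0.729 and 0.681 FPKM). Its ratio was 0.934 (0.472 to 1.84), an interval that includes 1 and does not overlap that of IL10RB. The listed span of IL10RB-DT, from 33263873 to 33266260, overlaps IFNAR2, which lies on the other strand. The sources used here do not say whether the counting used strand, so its counts may not be separate from those of IFNAR2.

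AP000295.1, listed from inside IFNAR2 into IL10RB on the same strand (33246774 to 33283212), had 4 and 0 counts. Added together, IL10RB and AP000295.1 had 24 and 439 counts, 18.0-fold more in the USP6 library (11.9 to 28.4). With IFNAR2 as well, the sum was 215 and 715 counts, 3.27-fold more (2.80 to 3.83). Per length, IL10RB stood at 0.0627 times the level of IFNAR1 in the pccl library and at 1.01 times its level in the USP6 library.

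**Figure D2:**
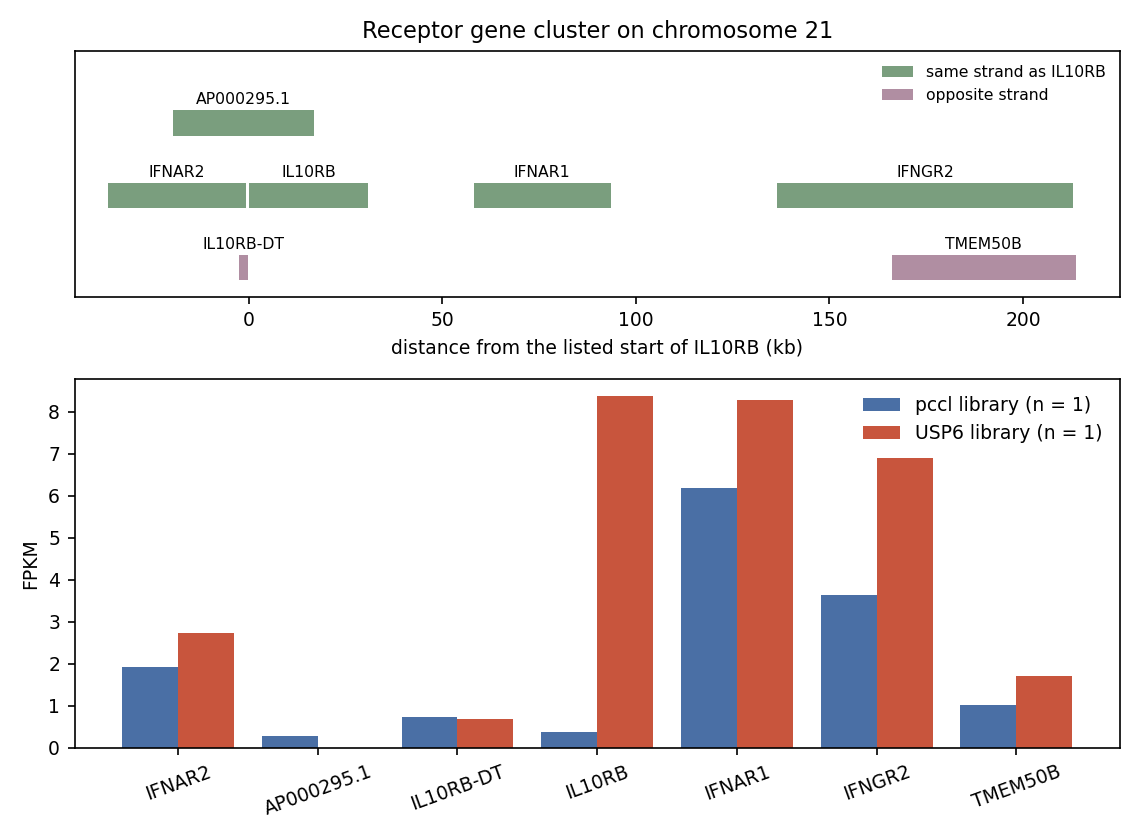
Map of the receptor genes on chromosome 21 by distance from the listed start of IL10RB (kb, above) and FPKM of each gene in the pccl and USP6 libraries (below, 1 library each). IL10RB goes from 0.388 to 8.37 FPKM, while IL10RB-DT, IFNAR2, IFNAR1, IFNGR2 and TMEM50B differ by less than 2-fold.

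The stretch between IL10RB-DT and IL10RB is printed because the genes on its ends had such different ratios. The sequence is the RefSeq promoter window of IL10RB (GRCh38.p14, chr21:33266117-33266357, plus strand), cut off before the start that the table lists for IL10RB, and capitals mark the 97 bases between the listed starts of both genes.
IL10RB: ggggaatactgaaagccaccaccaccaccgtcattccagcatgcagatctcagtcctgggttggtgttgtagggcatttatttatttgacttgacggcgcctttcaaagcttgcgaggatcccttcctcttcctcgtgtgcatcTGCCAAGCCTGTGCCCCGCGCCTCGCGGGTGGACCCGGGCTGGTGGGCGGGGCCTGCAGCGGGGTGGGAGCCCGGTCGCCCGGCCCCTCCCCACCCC
The capital stretch is 82.5% G or C. It holds the letters GGGCGG, as did 42.5% of the 34943 windows on either strand. Those windows, at 250 bases, are longer than this stretch.

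RefSeq windows were found for 29 of the 34 receptor genes, 43 windows in all, and 4 motifs were searched in the 250 bases before each start, on both strands. TGTGGT, the core letters bound by RUNX proteins, was present in 4 of the 43 windows (IL1R1, IL21R, IL7R and LIFR), which is 9.30% against 11% of all windows. GAGGAAGT, a PU.1 site, was present in 1 window (OSMR, 2.33% against 2.17%). The interferon-stimulated response element was present in 2 (IL18R1 and TNFRSF1B, 4.65% against 3.02%). TTCNNNGAA, the STAT element, was present in 5 windows of IL15RA, IL1R1, IL3RA and LIFR (11.6% against 6.56%). None of the windows of the 5 genes past a limit held any of these 4 motifs, which says only that these letters are not in these windows.

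All 4 interferon receptor chains had more counts per library total in the USP6 library, with the ligand-binding chain of the interferon gamma receptor ahead. IFNGR1 (ENSG00000027697, chromosome 6 from 137197484 to 137219449) had 512 counts (9.66 FPKM) with pccl and 1417 (26.3 FPKM) with USP6, 2.72-fold higher (2.46 to 3.02), a log2 ratio of 1.36. IFNGR2, which brings in JAK2, had 205 counts (3.65 FPKM) and 395 (6.91 FPKM), a log2 ratio of 0.77. IFNGR2 overlaps TMEM50B on the opposite strand, which had 106 and 182 counts, and the sources used here do not say whether the counting used strand.

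The type I interferon receptor chains differed less. IFNAR1, which binds TYK2, had 501 counts (6.19 FPKM) and 683 (8.29 FPKM), a log2 ratio of 0.37. IFNAR2, which binds JAK1, had 191 counts (1.93 FPKM) and 276 (2.74 FPKM), a log2 ratio of 0.35. Per length, IFNAR1 stood 3.21-fold above IFNAR2 in the pccl library and 3.03-fold above it in the USP6 library, so the balance of the type I chains was nearly the same in both. IFNGR1 stood 2.65-fold and 3.80-fold above IFNGR2. Of the 4 chains only IFNGR1 reached the limit.

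Of the IL-1, IL-18 and IL-17 receptor chains among the 34 genes, 3 were detected and 1 was lower in the USP6 library past the limit. IL1RAP, the accessory chain that IL-1, IL-33 and IL-36 receptors need to signal and a surface antigen of leukaemic stem cells, was that chain. IL1RAP (ENSG00000196083, chromosome 3 from 190514051 to 190659750) had 1481 counts (5.21 FPKM) with pccl and 380 (1.31 FPKM) with USP6, 3.96-fold lower (3.54 to 4.45), a log2 ratio of -1.42. Its partner IL1R1, the IL-1 binding chain, had 0 counts in both libraries.

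IL18R1, the IL-18 binding chain, had 140 counts (1.55 FPKM) and 69 (0.753 FPKM), 2.06-fold lower (1.54 to 2.80), with a log2 ratio of -0.54. It overlaps IL1RL1 on the same strand, which had 4 and 1 counts. IL17RA, the chain common to IL-17 receptors, had 664 counts (3.17 FPKM) and 421 (1.98 FPKM), 1.60-fold lower (1.42 to 1.82), with a log2 ratio of -0.49. Neither IL18R1 nor IL17RA reached the limit. The summed level of the 4 genes was 9.93 FPKM with pccl and 4.04 FPKM with USP6.

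The tumour necrosis factor receptors were level or undetected. TNFRSF1A, the death domain receptor found on most cells, had 777 counts (6.98 FPKM) and 783 (6.91 FPKM), a ratio of 0.991 with an interval of 0.896 to 1.10. TNFRSF1B, the receptor of lymphoid and activated myeloid cells, had 0 counts in both. EPOR, the erythropoietin receptor, had 39 counts (0.387 FPKM) and 162 (1.58 FPKM), 4.08-fold higher (2.86 to 5.95), with a log2 ratio of 0.90. The erythroid genes HBB and HBA1 had at most 1 count in each library, and KLF1 had 9 and 10.

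**Figure D3:**
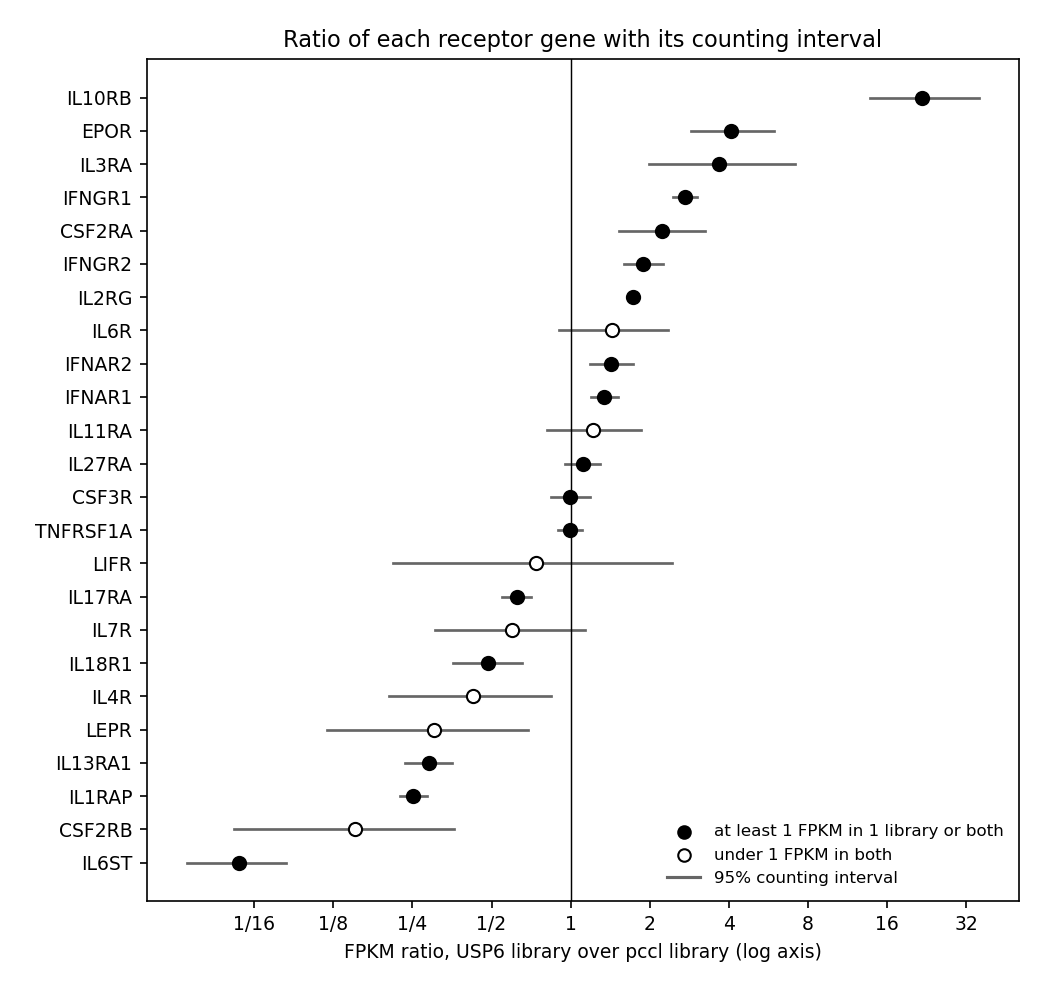
Ratio of FPKM, USP6 over pccl (log axis), for the 24 receptor genes with a count in both libraries and over 3 counts in 1 of them; bars are 95% counting intervals and filled points reach 1 FPKM in at least 1 library. IL10RB lies at 21.6 and IL6ST at 0.0546, while TNFRSF1A, CSF3R and IL27RA have intervals that include 1.

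Messages of the kinases, STAT factors and regulators that these chains use differed in both directions. Of 26 genes of receptor-proximal signalling, 22 reached 1 FPKM, 4 were higher and 3 lower past the limits, with a median log2 ratio of -0.29 against 0.06 over all genes. Those counts stand beside 13.7% higher and 11.4% lower among all genes. TYK2, the kinase bound by IFNAR1, had 6.14 and 18.6 FPKM, 3.03-fold higher (2.81 to 3.27). STAT6, the factor that IL-4 and IL-13 receptors activate, had 3.50 and 9.56 FPKM, 2.73-fold higher (2.51 to 2.98). STAT5A, a factor activated through CSF2RB and IL2RG, had 2.08 and 0.327 FPKM, 6.37-fold lower (4.65 to 8.89), and reached 1 FPKM in the pccl library alone.

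The genes of this list with the largest absolute log2 ratio were PTPN6 and GAB2 on the higher side. The phosphatase gene PTPN6 (SHP-1), which dampens cytokine signals, had 11.4 and 43.3 FPKM (3.79-fold higher, 3.58 to 4.01). The adaptor gene GAB2 had 0.198 and 2.88 FPKM (14.5-fold higher, 9.22 to 24.1). GAB2 reached 1 FPKM in the USP6 library alone, which sets its direction and enters the count of higher genes. On the lower side were PTPN11 (SHP-2), a phosphatase that carries signals from CSF2RB and IL6ST to RAS, with 53.9 and 16.6 FPKM (3.24-fold lower, 3.07 to 3.42), and SH2B3 (LNK), an inhibitor of JAK2 signalling, with 8.20 and 2.18 FPKM (3.76-fold lower, 3.22 to 4.42). Of 16 genes of IL-1 and tumour necrosis factor signalling, 13 reached 1 FPKM, with 3 higher, 1 lower (all genes: 13.7% and 11.4%) and a median of -0.13. The IL-17 receptor adaptor gene TRAF3IP2 had 0.375 and 3.73 FPKM (9.94-fold higher, 7.54 to 13.3). TRAF3IP2 also reached 1 FPKM in the USP6 library alone, which sets its direction. IRAK3, an inhibitor of IL-1 and Toll-like receptor signalling, had 13.5 and 5.67 FPKM (2.38-fold lower, 2.19 to 2.59). The adaptor gene TRAF2 had 6.37 and 14.4 FPKM (2.26-fold higher, 1.99 to 2.57), and TAB1, which binds the kinase TAK1, 2.14 and 5.34 FPKM (2.50-fold higher, 2.07 to 3.03).

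In these libraries the ratios of all genes followed the GC content of their transcripts, and the receptor genes past a limit all had AT-rich transcripts. The median log2 ratio was -0.37 in the tenth of genes lowest in GC and 0.74 in the tenth highest in GC. The longest transcripts of IL10RB, IFNGR1, IL6ST, IL1RAP and IL13RA1 were 39.8%, 40.2%, 36.6%, 41.7% and 42.9% G or C. Centred on that trend, the log2 ratios of IL10RB and IFNGR1 were larger, at 3.11 and 1.70, and those of IL1RAP and IL13RA1 were -1.13 and -1.14. That of IL6ST was -0.78, no longer past the limit. IL27RA went from 0.13 to -0.29 and EPOR from 0.90 to 0.47. LEPR went from -0.13 to 0.20 and IL18R1 from -0.54 to -0.25. Of the signalling genes past a limit, TYK2 went to 0.87, STAT6 to 0.92, TRAF2 and TAB1 to 0.47 and IRAK3 to -0.81, all inside the limits after centring.

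**Figure D4:**
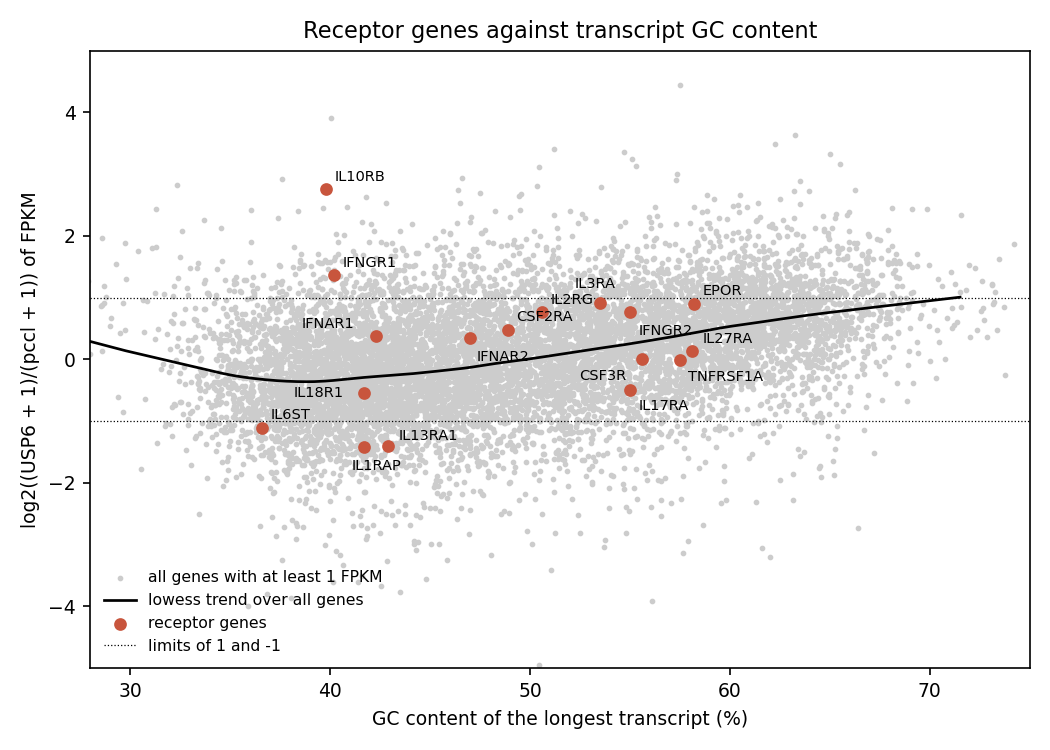
Log2 ratio of FPKM against the GC content (%) of the longest transcript for all genes with at least 1 FPKM (grey, 10 genes outside the axes), with the lowess trend (line) and the 17 receptor genes (red). IL10RB and IFNGR1 lie above the trend and IL1RAP, IL13RA1 and IL6ST below it, all with under 43% G or C.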

How the data were processed

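RNA from KASUMI-1 cells was sequenced as 1 library for each of the pccl and USP6 lentiviruses, per the labels. HISAT2 2.0.4, StringTie 1.3.3b and edgeR are named in the submitters' processing notes without their roles. The sources used here do not give the build, annotation or strandedness. The deposited table holds whole-number counts and the authors' FPKM, which equal the count over gene length and column total: in all 16030 genes with counts in both libraries the implied length agreed within 0.1%. Of 50111 identifiers found in GENCODE 29 (GRCh38), 94.8% had the same locus, 30 of the 34 receptor genes among them. The listed loci of IL10RB, IL10RA, IL2RA and IL15RA differed from that release, as did that of AP000295.1. Coordinates are printed as the table lists them.

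Rows sharing a symbol were summed. Genes needed 1 FPKM in the higher library, the pseudocount was 1, and the limits were 1 and -1. With 0 residual degrees of freedom no model was fitted to the counts. Folds are ratios of FPKM with exact conditional binomial (Clopper-Pearson) intervals at 95%, and a count of 0 was set to a floor of 3, and no fold was taken with 3 counts or fewer in each library. Values were also centred on a lowess curve (span 0.3) over the GC content of the longest GENCODE 29 transcript. Promoter windows are from RefSeq (GRCh38.p14). All receptor genes that reached 1 FPKM, any other whose counting interval excluded a ratio of 1 and those at 0 counts were to be named. For the other lists up to 4 expressed genes with the largest log2 ratios in either direction were named, and TYK2, STAT6, STAT5A, IL9R, IL18RAP, TNF and the sequences shown were picked after their values were seen, as were CCAAT and GGGCGG. The receptor genes and lists were chosen with earlier results of these data known. The steps were tested on simulated counts. Alternatives changed the pseudocount (0.1, 0.5, 5), the filter, the scaling (edgeR 4.0.16 under R 4.3.3 for the trimmed mean), the limit, GC centring and the handling of shared symbols and overlapping genes. The scripts ran under Python 3.11.15 with SciPy 1.17.1 for intervals, statsmodels 0.14.6 for the lowess curve and pandas 2.3.3. One gene of the marker lists is not reported here.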

Additional observations from a re-analysis of the deposited data

How the results depend on the processing

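IL10RB and IFNGR1 were counted as higher under every alternative run, save that IL10RB drops out where 1 FPKM is asked of both libraries, an alternative added after the data were seen. That filter left 1 gene higher and a median log2 ratio of 0.13 over the 11 genes that passed it. IL1RAP and IL13RA1 were lower under every alternative but the pseudocount of 5, and IL6ST was lower except with that pseudocount, a filter of 5 FPKM or of 1 FPKM in both libraries, and GC centring. The count of higher receptor genes was 5 with a pseudocount of 0.1 (CSF2RA, EPOR and IL3RA added), 4 with 0.5 (EPOR and IL3RA added) and 6 with a limit of 0.58. The count of lower ones was 0 with a pseudocount of 5, where the median was 0.15, and the median was 0.02 with no filter, over 28 genes. Among all genes, 2295 were higher and 1993 lower with a pseudocount of 0.1, 364 and 301 with 5, 808 and 682 with a filter of 5 FPKM and 2831 and 2489 with a limit of 0.58, against 1396 and 1156.

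The trimmed mean, upper quartile, nuclear depth and a median of 0 shifted all plain log2 ratios of FPKM by -0.10, -0.02, -0.12 and -0.08. With the pseudocount of 1, low genes shifted less. Each scaling left the same 5 receptor genes past the limits. No log2 ratio of the 5 genes past a limit changed sign in 60 recomputed values. Many of these could not change sign: a pseudocount or filter cannot alter it, and each receptor symbol was found once. IL27RA alone of the 17 genes with at least 1 FPKM changed sign, with GC centring. No paired analysis was possible because each group holds 1 library. Depth limits the chains with few counts: CSF2RB, LEPR, IL4R and IL3RA have wide intervals, and 0 counts allow up to 3.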

Other observations

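Of 27 receptor chains outside the 34 genes, 14 had no count and 6 reached 1 FPKM, with 2 higher, 0 lower and a median log2 ratio of 0.76 (all genes: 13.7% higher, 11.4% lower, median 0.06). IL17RE and IL20RB reached 1 FPKM in the USP6 library alone, which sets their direction and enters that count and median. SIGIRR, an inhibitory member of the IL-1 receptor family, had 314 counts (2.75 FPKM) with pccl and 1735 (14.9 FPKM) with USP6, 5.43-fold higher (4.81 to 6.15), opposite in direction to IL1RAP. IL17RE, a chain of the IL-17C receptor, had 0.980 and 5.47 FPKM, 5.58-fold higher (4.57 to 6.87). IL20RB had 0.694 and 1.59 FPKM, 2.28-fold higher (1.54 to 3.46). IL18RAP, the accessory chain of the IL-18 receptor, had 4.63 and 3.20 FPKM, 1.45-fold lower (1.19 to 1.76), with a log2 ratio of -0.42, under the limit. IL18BP, the secreted decoy for IL-18, had 1.04 and 2.80 FPKM, 2.70-fold higher (2.24 to 3.28), with a log2 ratio of 0.90, also under it. Centred on the GC trend, the log2 ratios of SIGIRR and IL17RE went from 2.09 and 1.71 to 1.22 and 1.08. Those of IL20RB, IL18RAP and IL18BP went to 0.58, -0.17 and 0.63.

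Messages of the cytokines themselves were scarce. Of 42 ligand genes, 21 had no count in either library and 5 reached 1 FPKM, with 4 higher, 0 lower and a median log2 ratio of 1.08 (all genes: 13.7% higher, 11.4% lower). IL18 was the most abundant, with 50 counts (0.788 FPKM) and 172 (2.67 FPKM), 3.38-fold higher (2.46 to 4.73). IFNB1, encoding interferon beta, had 0 and 13 counts. With the 0 set to the floor of 3 counts its ratio was 4.26, without a counting interval. LTA had 3 and 45 counts, a ratio of 14.7 (4.73 to 74.2), EPO 3 and 25, a ratio of 8.19 (2.50 to 42.4), and TNF 23 and 9, 2.60-fold lower (1.16 to 6.38). TNF reached 1 FPKM in the pccl library alone and the other expressed ligand genes in the USP6 library alone. For each of them this sets the direction. Centred on the GC trend, the log2 ratios of LTA and EPO were 0.93 and 0.48, inside the limits.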
